A study of Mus musculus with 6 samples.

Results

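Transcripts of glycosaminoglycan synthesis and sulfation enzymes were examined in aortas of Mymsl knockout mice (KO), with Mymsl wild-type mice (WT) as controls. Mymsl is a long noncoding RNA gene. The set held 41 genes of the 53735 rows of the deposited count table, chosen by name as the enzymes that build, sulfate and trim chondroitin, dermatan, heparan and hyaluronan chains, with Csgalnact2 as the starting point. The choice was made with earlier results of these data known. All 41 genes had a row. Messenger RNA was sequenced in 3 KO libraries and 3 WT libraries with a stranded poly(A) kit, from RNA of smooth muscle cells taken from the medial layer of the vessel wall. Both groups shared that tissue and no treatment is listed. The sources used here give neither the kind of knockout allele nor the strain, sex and age of the mice.

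Glycosaminoglycans are long unbranched sugar chains made of repeating sugar pairs. Chondroitin, dermatan and heparan sulfate are built in the Golgi onto serines of proteoglycan core proteins, starting from a short linkage region that all of them share, and are then sulfated at several positions. Hyaluronan is spun out at the plasma membrane without a core protein or sulfate. In the arterial media these chains hold water, bind growth factors and retain lipoproteins, and vascular smooth muscle cells are their main producers there.

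Total counts lay between 20048216 and 23243129 per KO library and between 23506674 and 25521123 per WT library. No row was named Mymsl. A clone-named row, RP23-57D10.3, had 0 counts in each KO library and 314, 378 and 273 counts in the WT libraries, and was the only row of the table called by edgeR (adjusted p = 0.00527). Mitochondrially encoded genes took 18.9%, 10% and 13% of counts in KO replicates 1, 2 and 3, against 7.84%, 9.02% and 5.66% in WT. Hox genes of the more posterior paralogue groups, which mark position along the aorta, averaged −0.32, 0.78 and 1.93 log2 CPM (a gene's count scaled to a common library size) in KO replicates 1, 2 and 3, against 1.90, 2.06 and 1.71 in WT. All 8 smooth muscle markers, Acta2 and Myh11 among them, were detected in every library, with summed levels of 40232 to 54217 CPM in KO and 48818 to 52207 CPM in WT. Summed markers of 7 other cell types overlapped between the groups too: 367 to 642 CPM in KO and 326 to 433 CPM in WT for endothelium, and 633 to 1415 CPM in KO and 571 to 994 CPM in WT for adventitial fibroblasts. The ranges were 46.1 to 118 CPM in KO and 49.8 to 84.5 CPM in WT for macrophages, 138 to 309 CPM in KO and 132 to 263 CPM in WT for adipocytes, and 89.4 to 159 CPM in KO and 78.4 to 111 CPM in WT for heart muscle, where Myl7 and Nppa were at 0 in some libraries. They were 250 to 256 CPM in KO and 254 to 279 CPM in WT for Schwann cells, and 25.6 to 35.5 CPM in KO and 20.3 to 152 CPM in WT for erythroid cells. Ryr2 made up most of the heart muscle sum in every library, at 69.5 to 81.4 CPM in KO and 54.4 to 93.1 CPM in WT. Each other heart muscle marker was highest in KO replicate 1. EdgeR called no marker gene.

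No glycosaminoglycan gene passed edgeR's test. Of the 41 genes, 39 had enough reads to be tested, and Has1 and Has2 did not. With edgeR's quasi-likelihood test, adjusted over all 14145 tested rows, 0 of the 39 were called lower in KO, where the table as a whole had 0.00707% called lower, and 0 were called higher, where the table had 0%. At an unadjusted p under 0.05, 5 genes were lower in KO (12.8% of those tested, with 7.76% over all tested rows), namely Csgalnact2, Chsy1, Extl2, Ndst1 and Papss1. Hs3st1 alone was higher at that level (2.56%, with 6.8% over all tested rows). The test of DESeq2, with its own adjustment, called Csgalnact2 lower among the 35 of these genes that it gave an adjusted p (2.86%, with 1.22% of 10374 rows called lower) and none higher (0.627% of rows called higher). Limma-voom called 0 of the 39 lower and 0 higher, with 0.00707% and 0% of all tested rows.

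The differences were small and leaned to lower values in KO. Log2 fold changes, KO over WT, were below 0 for 29 of the 39 genes, a share of 74.4% where 47.5% of all tested rows were below 0, and above 0 for 10, where 52.5% of all tested rows were above. Their median over the 39 was −0.11, beside 0.01 over all tested rows, and they ran from −0.66 for Hs6st2 to 0.64 for Hs3st1. Fold changes of single genes are given below ± SE. In 11 genes (28.2%) every KO library lay below every WT library, which held for 11.3% of all tested rows. These were Csgalnact2 and Chsy1 of chondroitin chain building, Xylt1 and Fam20b of the linkage region, Dse and Dsel of dermatan epimerization, Ext2, Extl2 and Ndst1 of heparan synthesis, the sulfatase Sulf2, and Papss1 of sulfate donor synthesis. Hs3st1 alone of the tested genes lay above WT in every KO library (2.56%, with 10.5% of all tested rows). Beside this lean stand the cell type markers, whose log2 fold changes were below 0 for 7 of 8 smooth muscle markers (median −0.12) and 5 of 5 erythroid markers. They were above 0 for 8 of 8 adipocyte, 7 of 8 macrophage, 7 of 8 adventitial fibroblast, 6 of 8 endothelial and 6 of 7 tested heart muscle markers, and for 4 of 7 tested Schwann markers. Myocd, a coactivator of smooth muscle genes and one of the smooth muscle markers, had 66.8, 93.7 and 100.9 CPM in KO libraries, against 122.6, 102.1 and 121.2 CPM in WT libraries (log2 fold change −0.40 ± 0.15, unadjusted p = 0.0301, adjusted p = 0.303 with edgeR), and its groups did not overlap. Myocd had the lowest log2 fold change of the smooth muscle list. Other markers also had an unadjusted p under 0.05 with edgeR: Cldn5, Myh6, Tnni3 and Myl4 were higher in KO, Alas2 and Hbb-bs lower. Of these only Myl4, a heart muscle marker, had groups that did not overlap, with KO above WT. Its log2 fold change was 0.82 ± 0.30 (unadjusted p = 0.0259, adjusted p = 0.292 with edgeR). KO replicate 1 was highest for Myh6, Tnni3 and Myl4, at 13.4, 8.25 and 18.1 CPM. KO replicate 2 came next, at 3.06, 4.16 and 9.03 CPM. WT replicate 1 was highest for Alas2 and Hbb-bs, at 6.27 and 78.9 CPM, with WT replicate 3 next, at 2.40 and 37.8 CPM. Cldn5 was highest in KO replicate 3, at 21.5 CPM. The part of cell make-up in the values of the enzyme genes was not tested. In these bulk libraries, fewer cells of a type and less RNA per cell cannot be told apart.

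**Figure D1:**
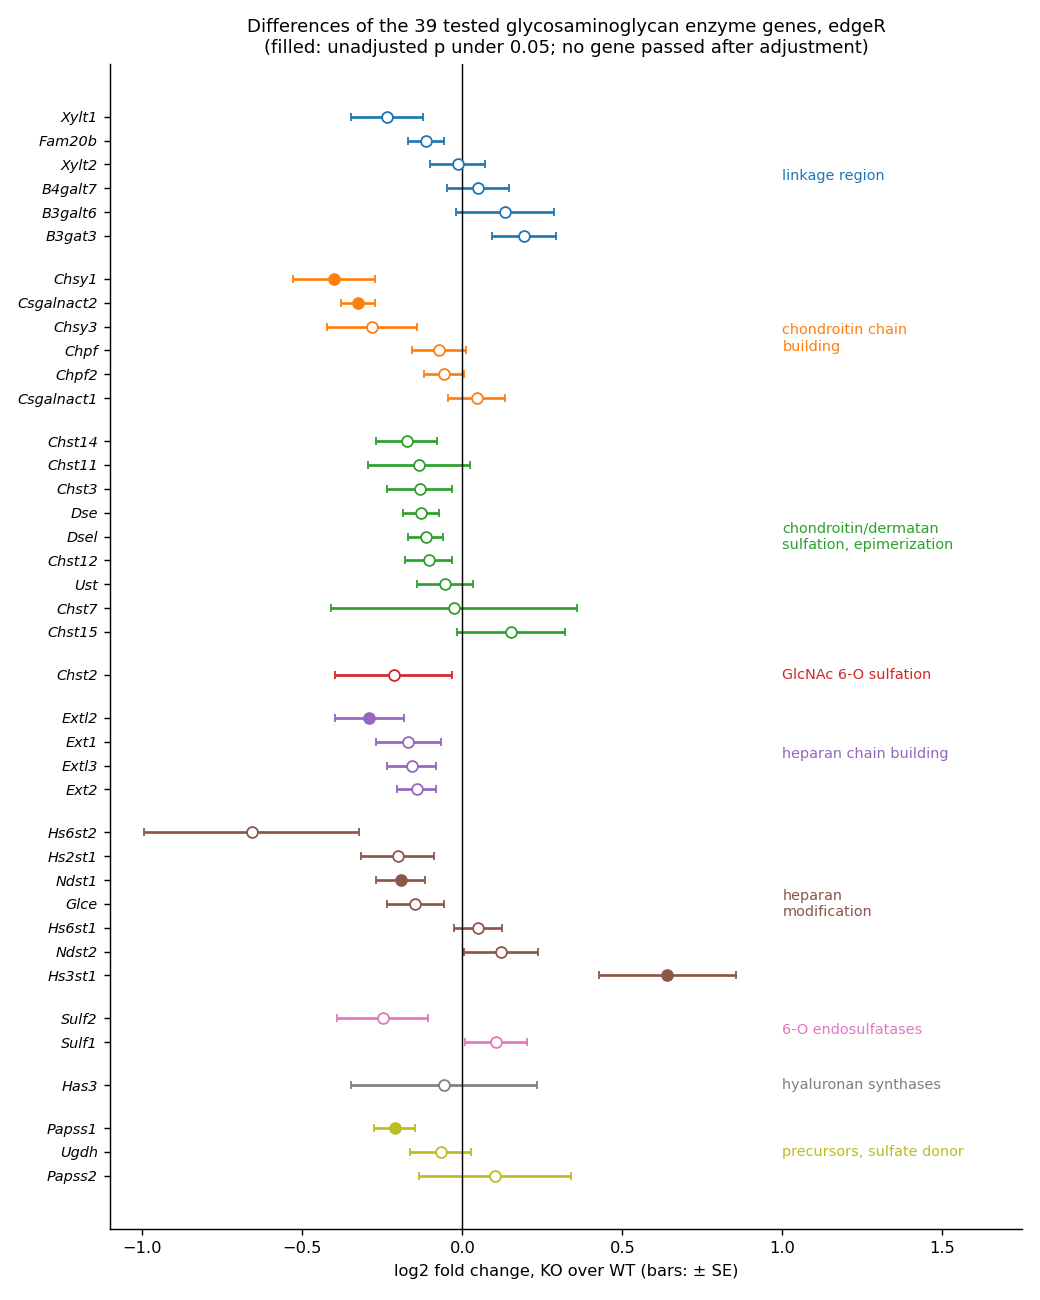
Log2 fold changes, KO over WT, of the 39 tested genes are plotted by role, with bars of 1 standard error from edgeR and filled points where the unadjusted p was under 0.05. Of the 39 points 29 lie left of 0, and the range runs from −0.66 (Hs6st2) to 0.64 (Hs3st1).

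The promoters of 5 of the 6 genes with an unadjusted p under 0.05 are shown. Ndst1 is left out, as no promoter of the length used was listed for it. Each is the first listed start in RefSeq on GRCm38.p6, from 250 bases before to 50 bases after that start. Capitals mark a GC box (GGGCGG, the core of Sp-family sites) or a CCAAT box on either strand, and no GC box overlaps a CCAAT box in these windows.
Csgalnact2, chr6:118139091-118139390, minus strand: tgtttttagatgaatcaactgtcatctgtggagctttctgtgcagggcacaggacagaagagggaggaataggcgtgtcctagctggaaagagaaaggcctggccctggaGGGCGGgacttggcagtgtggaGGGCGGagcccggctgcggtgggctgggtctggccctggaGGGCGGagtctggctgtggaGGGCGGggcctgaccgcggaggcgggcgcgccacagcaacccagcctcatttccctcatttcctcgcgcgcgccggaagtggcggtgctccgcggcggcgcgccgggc
Chsy1, chr7:66109242-66109541, plus strand: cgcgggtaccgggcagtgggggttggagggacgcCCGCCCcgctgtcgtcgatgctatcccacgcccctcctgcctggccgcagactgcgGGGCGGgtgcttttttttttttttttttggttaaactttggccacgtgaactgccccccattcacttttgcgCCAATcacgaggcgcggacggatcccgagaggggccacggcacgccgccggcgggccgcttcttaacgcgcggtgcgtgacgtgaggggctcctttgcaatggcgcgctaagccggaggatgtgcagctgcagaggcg
Papss1, chr3:131564518-131564817, plus strand: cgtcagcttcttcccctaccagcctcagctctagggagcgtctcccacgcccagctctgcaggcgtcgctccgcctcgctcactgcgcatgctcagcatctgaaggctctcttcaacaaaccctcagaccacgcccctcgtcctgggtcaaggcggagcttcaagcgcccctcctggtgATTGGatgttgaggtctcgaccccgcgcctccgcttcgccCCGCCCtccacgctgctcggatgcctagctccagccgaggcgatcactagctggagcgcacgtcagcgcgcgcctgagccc
Extl2, chr3:116007199-116007498, plus strand: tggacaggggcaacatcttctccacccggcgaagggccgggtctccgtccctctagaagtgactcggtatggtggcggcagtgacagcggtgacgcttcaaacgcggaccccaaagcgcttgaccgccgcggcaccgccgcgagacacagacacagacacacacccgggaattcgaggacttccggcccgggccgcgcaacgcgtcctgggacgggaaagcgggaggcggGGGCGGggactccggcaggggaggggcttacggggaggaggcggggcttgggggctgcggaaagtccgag
Hs3st1, chr5:39644582-39644881, minus strand: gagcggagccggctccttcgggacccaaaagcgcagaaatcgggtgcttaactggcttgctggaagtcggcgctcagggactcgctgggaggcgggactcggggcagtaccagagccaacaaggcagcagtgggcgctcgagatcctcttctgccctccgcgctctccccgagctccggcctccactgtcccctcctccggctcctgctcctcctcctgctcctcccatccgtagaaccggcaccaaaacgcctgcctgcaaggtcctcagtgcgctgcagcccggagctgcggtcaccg
The Csgalnact2 window held 4 GC boxes and no CCAAT box, Chsy1 held 2 GC boxes and 1 CCAAT box, and Papss1 held 1 of each. Extl2 held 1 GC box, and Hs3st1, the gene with the higher value in KO, held neither of the motifs. Of 32851 RefSeq mouse promoters of the same length, 35.7% had a GC box and 37.4% a CCAAT box. Of the 40 promoters listed for 32 of the 41 genes, 26 (65%) had a GC box and 16 (40%) a CCAAT box. The windows of these genes were also richer in G and C, with a median of 66.3% beside 52.7% over all promoters. Further motifs were searched on both strands. CACGTG, the E-box of basic helix-loop-helix factors such as the clock proteins, was in 10% of the 40 and 7.15% of all promoters. GGAATG, bound by TEAD factors, was in 22.5% and 14.7%. The CArG box, bound by serum response factor in smooth muscle genes, was in 0 of the 40 and in 1.63% of all promoters. Such matches describe letters in these windows and not binding.

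Chondroitin chain building held the gene with the smallest p of the whole set, Csgalnact2. The set was chosen around this gene with earlier results of these data known. Its rank, its p-values, its DESeq2 call and its share of the pair with Csgalnact1 below therefore give no independent support. Csgalnact2 (chr6:118107452-118139140, minus strand, GRCm38) encodes one of a pair of enzymes that start a chondroitin chain by adding the first N-acetylgalactosamine to the linkage region. Its level was 88.0, 87.4 and 87.8 CPM in the KO libraries, against 109.7, 107.7 and 112.8 CPM in the WT libraries. The groups did not overlap, and the 3 KO libraries lay closer together than the WT libraries. The means were 87.8 ± 0.31 CPM in KO and 110.0 ± 2.6 CPM in WT (SD, n = 3 each), from 1707, 1830 and 2030 counts in KO and 2642, 2710 and 2724 counts in WT. Counting error alone gives an SD of about 2.04 CPM at the KO depth, so the KO spread of 0.31 was smaller than counting error alone would give on average. The log2 fold change was −0.33 ± 0.052 (SE), or 0.80 of the WT level, with an unadjusted p of 0.000304 and an adjusted p of 0.239 in edgeR's test, which ranked it 8 of 14145. DESeq2 gave −0.33 with an adjusted p of 0.00363, and limma-voom an adjusted p of 0.25. The fold change was between −0.34 and −0.30 in all 16 alternative fits, and the call was made by DESeq2 only.

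Csgalnact1, the other chain starter, had 29.2, 25.1 and 28.1 CPM in KO libraries, against 24.4, 27.3 and 28.1 CPM in WT libraries, and the groups overlapped. Its log2 fold change was 0.045 ± 0.089 (edgeR adjusted p = 0.837), and its sign changed when some libraries were left out. Csgalnact2 made up 73.9%, 76.6% and 74.5% of the summed CPM per kilobase of exon of the pair in KO, against 80.8%, 78.7% and 79.0% in WT. The mean share was 75.0% ± 1.40 in KO and 79.5% ± 1.13 in WT (SD), without overlap. The exact two-sided permutation p was 0.1, the smallest that 3 against 3 libraries allow, and 0.44 after adjustment over the 11 pairs of related enzymes compared. Xylt2 against Xylt1 was the only other pair whose shares did not overlap.

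The remaining chondroitin builders are the polymerase genes Chsy1, Chsy3, Chpf and Chpf2, whose products alternate glucuronic acid and N-acetylgalactosamine along the chain. Chsy1 (chr7:66109515-66173798, plus strand), the catalytic chondroitin synthase of most tissues, had 61.1, 89.4 and 76.9 CPM in KO replicates 1, 2 and 3, against 103.8, 93.9 and 102.9 CPM in WT. Every KO library was below every WT library, KO replicate 1 by the most, and the mean was 75.8 ± 14.2 CPM in KO and 100.2 ± 5.5 CPM in WT (SD, n = 3 each). The log2 fold change was −0.40 ± 0.13 (unadjusted p = 0.0151, adjusted p = 0.279 with edgeR). It came to −0.27 without KO replicate 1, to −0.54 without KO replicate 2, and to −0.27 with the Hox mean as a covariate. When KO replicates 1 and 3 were both left out, which left KO replicate 2 as the only KO library, it was −0.16. Chpf, a polymerizing cofactor and the most abundant builder per length, had 103.5, 125.3 and 116.8 CPM in KO libraries, against 121.3, 114.9 and 127.4 CPM in WT libraries, and the groups overlapped (log2 fold change −0.073 ± 0.084, edgeR adjusted p = 0.703). Chsy3 was at 10.4 ± 1.2 CPM in KO and 12.7 ± 1.8 CPM in WT (log2 fold change −0.28 ± 0.14). Chpf2 was at 57.6 ± 2.1 CPM in KO and 60.0 ± 3.3 CPM in WT (log2 fold change −0.058 ± 0.062), and is uncertain, since 44.1% of its exon bases lie opposite exons of Smarcd3 and the sources used here give no strand setting for the counting.

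**Figure D2:**
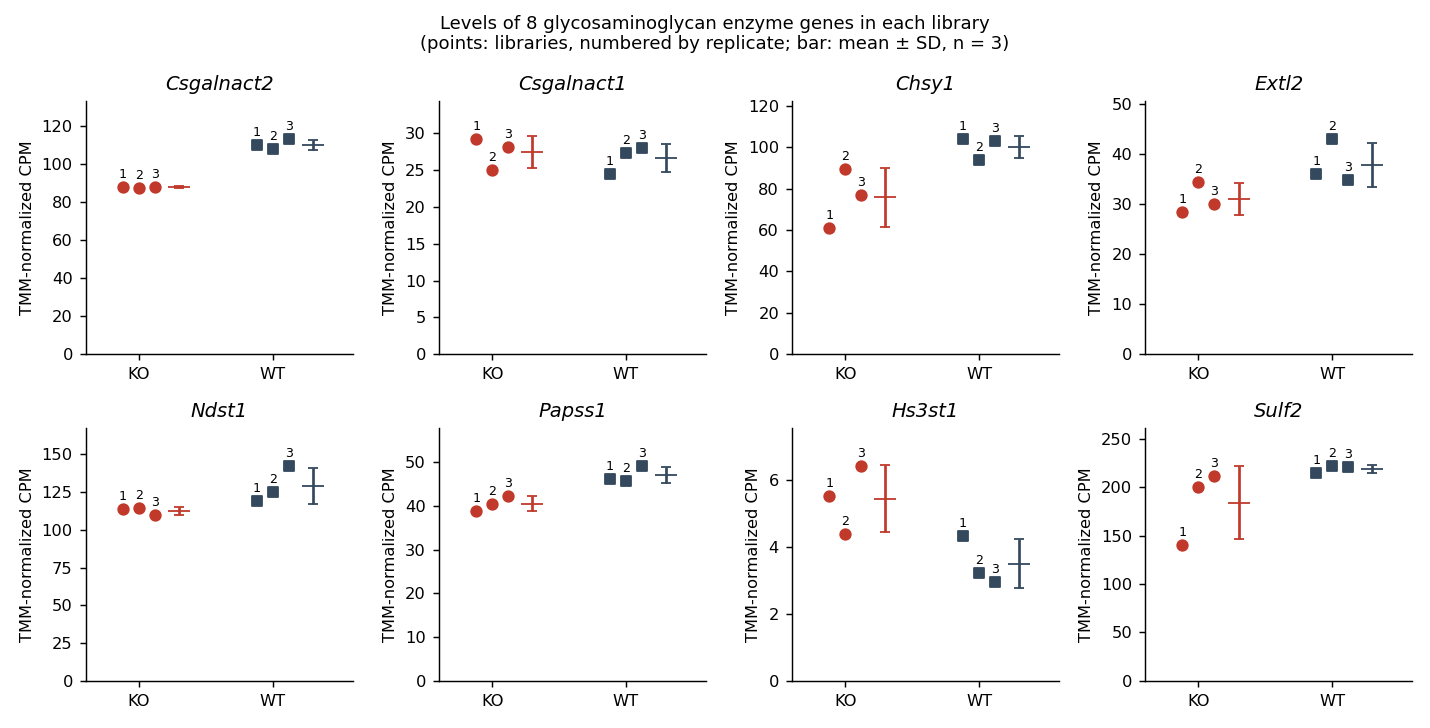
CPM in each of the 6 libraries is plotted for the 6 genes with an unadjusted p under 0.05 and for Csgalnact1 and Sulf2, with KO left of WT, each library as a numbered point and the mean ± SD beside it. Csgalnact2 lies at 87.4 to 88.0 in KO and at 107.7 to 112.8 in WT, and Hs3st1 is the gene with KO above WT.

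The linkage region is a chain of xylose, galactose, galactose and glucuronic acid on which chondroitin and heparan sulfate both grow. Its 6 genes split evenly, with 3 log2 fold changes below 0 and 3 above, a median of 0.016 and none past the test. Xylt1, one of a pair of xylosyltransferases that put the first sugar on the core protein, had 15.9, 20.7 and 20.7 CPM in KO libraries, against 22.4, 21.9 and 23.3 CPM in WT libraries. KO replicate 1 was lowest and the groups did not overlap (log2 fold change −0.24 ± 0.11, edgeR adjusted p = 0.371), and the value was −0.12 without that library and −0.078 with the Hox mean as a covariate. Xylt2, its partner, was at 28.9 ± 2.1 CPM in KO and 29.2 ± 2.0 CPM in WT (log2 fold change −0.015 ± 0.085), and its share of the pair was 78.7% ± 1.56 in KO and 75.9% ± 0.96 in WT (exact permutation p = 0.1, adjusted 0.44). Fam20b, the kinase that phosphorylates the xylose, had 73.3, 69.8 and 70.2 CPM in KO libraries, against 75.4, 75.1 and 80.5 CPM in WT libraries, with a narrow gap between the groups (log2 fold change −0.11 ± 0.056, edgeR adjusted p = 0.379). B3gat3, which adds the closing glucuronic acid, was the most abundant linkage gene per length. It had 30.4, 26.2 and 24.7 CPM in KO libraries, against 25.2, 21.7 and 24.3 CPM in WT libraries, and the groups overlapped (log2 fold change 0.19 ± 0.10, edgeR adjusted p = 0.402). The galactosyltransferases B4galt7 and B3galt6 had log2 fold changes of 0.048 and 0.13, with overlapping groups.

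Chondroitin and dermatan sulfation and epimerization were covered by 9 genes, 8 with a log2 fold change below 0, a median of −0.11 and none past the test. Dse and Dsel encode the epimerases that turn glucuronic into iduronic acid and so make dermatan out of chondroitin. Dse had 40.1, 40.4 and 40.5 CPM in KO libraries, against 44.4, 42.9 and 45.0 CPM in WT libraries (log2 fold change −0.13 ± 0.056, edgeR adjusted p = 0.344). Dsel had 51.8, 53.0 and 52.8 CPM in KO libraries, against 58.4, 58.0 and 54.2 CPM in WT libraries (log2 fold change −0.11 ± 0.055, edgeR adjusted p = 0.374). Both had KO libraries that lay tightly together just below the lowest WT library. Chst12, a chondroitin 4-O-sulfotransferase and the most abundant sulfotransferase of this group per length, had 60.4, 69.6 and 61.3 CPM in KO libraries, against 66.9, 66.1 and 72.9 CPM in WT libraries, with overlap (log2 fold change −0.11 ± 0.075, edgeR adjusted p = 0.515). Chst3, the main chondroitin 6-O-sulfotransferase, was at 93.9 ± 8.5 CPM in KO and 103.0 ± 12.3 CPM in WT, and the dermatan 4-O-sulfotransferase Chst14 at 22.3 ± 2.4 CPM in KO and 25.2 ± 1.4 CPM in WT. The uronyl 2-O-sulfotransferase Ust was at 51.2 ± 4.5 CPM in KO and 53.2 ± 4.3 CPM in WT. These 3 genes overlapped between the groups, with log2 fold changes between −0.17 and −0.054. Chst11 and Chst7, which sulfate the 4 and 6 positions, were low, at 9.31 ± 1.3 and 1.45 ± 0.65 CPM in KO, against 10.2 ± 1.6 and 1.48 ± 0.31 CPM in WT. Chst15, which adds a further sulfate to already sulfated N-acetylgalactosamine, was the only gene of the group above 0 (log2 fold change 0.15 ± 0.17). Chst2 sulfates N-acetylglucosamine on keratan-type chains and selectin ligands and stands apart in substrate. It had 5.83, 9.22 and 8.05 CPM in KO libraries, against 9.55, 7.79 and 9.52 CPM in WT libraries, with overlap (log2 fold change −0.22 ± 0.18, edgeR adjusted p = 0.596).

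Heparan chain building was below 0 in 4 of 4 genes, with a median log2 fold change of −0.16 and none past the test. Ext1 and Ext2 encode the polymerase complex that lengthens heparan chains. Ext1, the most abundant per length, had 185.5, 178.2 and 172.8 CPM in KO libraries, against 198.3, 174.7 and 230.3 CPM in WT libraries, and the groups overlapped through WT replicate 2 (log2 fold change −0.17 ± 0.10, edgeR adjusted p = 0.452). That value was −0.057 without WT replicate 3, the highest library, and −0.26 without WT replicate 2. Ext2 had 94.7, 105.3 and 101.8 CPM in KO libraries, against 110.2, 109.5 and 113.4 CPM in WT libraries, without overlap (log2 fold change −0.14 ± 0.061, edgeR adjusted p = 0.344). Extl2 (chr3:116007462-116029017, plus strand), a transferase that caps phosphorylated linkage regions and so limits chain growth, had 28.4, 34.5 and 30.1 CPM in KO libraries, against 36.0, 42.9 and 34.8 CPM in WT libraries. The groups were separated by less than 1 CPM, between KO replicate 2 and WT replicate 3. The log2 fold change was −0.29 ± 0.11 (unadjusted p = 0.0292, adjusted p = 0.3 with edgeR), −0.19 without WT replicate 2 and −0.13 when KO replicates 1 and 3 were both left out. Extl3, which adds the first N-acetylglucosamine and so commits a linkage region to heparan, was at 91.7 ± 2.4 CPM in KO and 102.3 ± 9.4 CPM in WT (log2 fold change −0.16 ± 0.077).

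Heparan modification was the group with the widest range, 4 of 7 genes below 0 and 3 above. Ndst1 (chr18:60684494-60748650, minus strand) encodes the N-deacetylase and N-sulfotransferase that acts before the other heparan sulfotransferases. It had 113.5, 114.7 and 109.8 CPM in KO libraries, against 119.3, 125.1 and 142.1 CPM in WT libraries. The groups did not overlap, and WT replicate 3 stood highest. This gave a log2 fold change of −0.19 ± 0.077 (unadjusted p = 0.0376, adjusted p = 0.321 with edgeR), and −0.11 without WT replicate 3. Ndst2, its relative, was at 17.9 ± 1.8 CPM in KO and 16.4 ± 1.9 CPM in WT (log2 fold change 0.12 ± 0.12), with overlap.

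Hs3st1 (chr5:39613935-39755475, minus strand) had the highest fold change of the 39 tested genes. It encodes the 3-O-sulfotransferase known for completing the antithrombin-binding site of heparan sulfate. It had 5.52, 4.39 and 6.40 CPM in KO libraries, against 4.32, 3.22 and 2.94 CPM in WT libraries, from 107, 92 and 148 counts in KO and 104, 81 and 71 counts in WT. KO replicate 2 and WT replicate 1 were nearly level, so the separation was slight. The mean was 5.44 ± 1.0 CPM in KO and 3.49 ± 0.73 CPM in WT (SD, n = 3 each), with a log2 fold change of 0.64 ± 0.21 (unadjusted p = 0.0181, adjusted p = 0.279 with edgeR). DESeq2 gave no adjusted p for it. It came to 0.50 when KO replicate 3 was left out, to 0.82 when WT replicate 1 was, and to 0.34 when KO replicates 1 and 3 both were. Hs3st1 is also transcribed in endothelium, and summed endothelial markers were 394, 367 and 642 CPM in KO, against 433, 347 and 326 CPM in WT. KO replicate 3 was highest in both, and the part of endothelial cells in the Hs3st1 difference was not tested.

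In the remaining heparan modification genes the groups overlapped. Hs6st2, a 6-O-sulfotransferase, had 3.15, 9.41 and 6.44 CPM in KO libraries, against 9.88, 8.70 and 11.5 CPM in WT libraries. KO replicate 1 was far below the rest and KO replicate 2 lay within the WT range, and the log2 fold change of −0.66 ± 0.34 (edgeR adjusted p = 0.391) became −0.34 without KO replicate 1 and −1.05 without KO replicate 2. It was −0.32 with the Hox mean as a covariate and −0.088 when KO replicates 1 and 3 were both left out. Its relative Hs6st1 was nearly level, at 19.1 ± 0.66 CPM in KO and 18.5 ± 0.84 CPM in WT (log2 fold change 0.049 ± 0.076). Hs2st1, the 2-O-sulfotransferase, was at 15.6 ± 2.1 CPM in KO and 17.9 ± 1.2 CPM in WT (log2 fold change −0.20 ± 0.11). Glce, the heparan epimerase, was at 34.6 ± 1.9 CPM in KO and 38.3 ± 3.8 CPM in WT (log2 fold change −0.15 ± 0.088).

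Sulf1 and Sulf2 encode the secreted sulfatases that strip 6-O sulfates from finished heparan chains outside the cell. By their mean over all 6 libraries they were the most abundant genes of the set per length of exon. Sulf2 had 140.5, 200.3 and 211.0 CPM in KO replicates 1, 2 and 3, against 214.3, 221.5 and 220.6 CPM in WT. The groups did not overlap, but KO replicate 1 lay far below the rest, and the log2 fold change of −0.25 ± 0.14 (edgeR adjusted p = 0.431) was −0.090 without it and 0.0064 with the Hox mean as a covariate. Sulf1 had 425.4, 339.5 and 394.2 CPM in KO libraries, against 373.0, 368.8 and 336.1 CPM in WT libraries. Here KO replicate 1 was highest of all and the groups overlapped (log2 fold change 0.10 ± 0.097, edgeR adjusted p = 0.63).

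Hyaluronan synthases were scarce. Has1 had 7, 4 and 5 counts in KO libraries, against 4, 2 and 1 counts in WT libraries. Has2, the main synthase of developing heart and vessels, had 4, 9 and 2 counts in KO libraries, against 12, 2 and 10 counts in WT libraries. Neither reached the minimum for testing. Has3 had 3.15, 3.01 and 4.37 CPM in KO libraries, against 2.82, 5.24 and 2.90 CPM in WT libraries, with overlap (log2 fold change −0.058 ± 0.29, edgeR adjusted p = 0.941).

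Sulfate donor and sugar precursor enzymes were Papss1, Papss2 and Ugdh. Papss1 (chr3:131564768-131643671, plus strand), which makes the activated sulfate PAPS that every sulfotransferase above uses, had 38.8, 40.5 and 42.3 CPM in KO libraries, against 46.1, 45.8 and 49.1 CPM in WT libraries. All KO libraries lay below all WT libraries, with means of 40.5 ± 1.8 CPM in KO and 47.0 ± 1.8 CPM in WT (SD, n = 3 each). Its log2 fold change was −0.21 ± 0.064 (unadjusted p = 0.0111, adjusted p = 0.275 with edgeR). Papss2, the other PAPS synthase, had 33.4, 16.2 and 21.7 CPM in KO libraries, against 24.99, 21.1 and 20.3 CPM in WT libraries. Its highest and its lowest value both came from KO, so the groups overlapped (log2 fold change 0.10 ± 0.24). Ugdh, which makes UDP-glucuronic acid, was at 47.9 ± 6.2 CPM in KO and 50.3 ± 1.7 CPM in WT (log2 fold change −0.068 ± 0.096).

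Levels were compared between genes only after division by exon length, as CPM per kilobase of exon. Sulf2 was at 31.3 ± 6.5 in KO and 37.3 ± 0.66 in WT on this scale (SD, n = 3 each), and Sulf1 at 34.2 ± 3.9 in KO and 31.8 ± 1.8 in WT. Sulf2 stood above Sulf1 in every WT library, and their values overlapped among KO libraries. Chpf was next, at 29.9 ± 2.8 in KO and 31.4 ± 1.6 in WT, before Chst12, at 27.0 ± 2.1 in KO and 29.1 ± 1.6 in WT. Within every library Chpf stood above Chst12, though their ranges over libraries overlapped in both genotypes. Ext1, at 22.1 ± 0.78 in KO and 24.9 ± 3.5 in WT, was the leading chain-building gene of heparan. Csgalnact2, at 16.1 ± 0.057 in KO and 20.2 ± 0.47 in WT, stood above Csgalnact1, at 5.39 ± 0.42 in KO and 5.23 ± 0.38 in WT, in both genotypes. At the low end were Has3 (0.550 ± 0.12 in KO, 0.573 ± 0.22 in WT), Has2 and Has1. Summed on this scale, the 6 chondroitin builders had 81.3 ± 6.05 in KO and 93.4 ± 2.91 in WT, and the 4 heparan builders 60.0 ± 1.501 in KO and 67.9 ± 4.18 in WT. The 6 linkage genes had 34.5 ± 0.53 in KO and 33.97 ± 0.69 in WT.

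**Figure D3:**
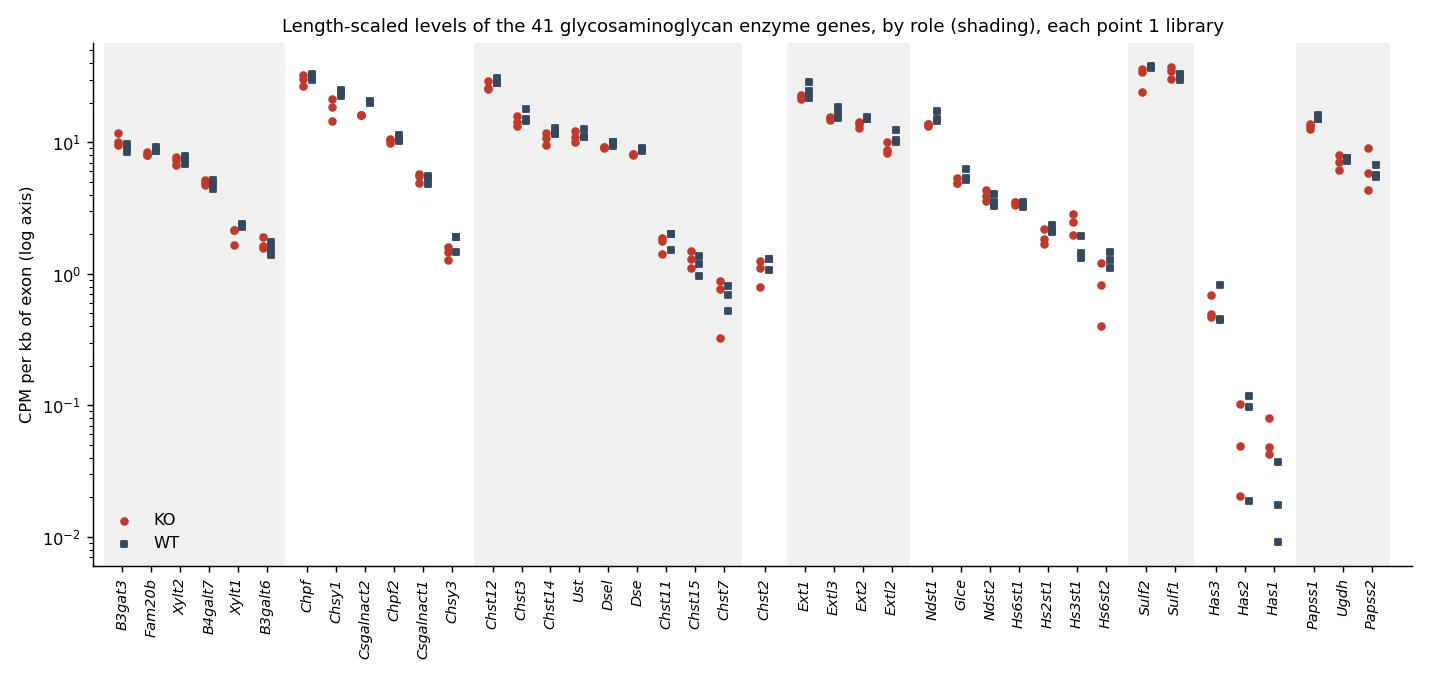
The level of all 41 genes is plotted in CPM per kilobase of exon on a log axis, grouped by role, with each library as a point and KO left of WT. Sulf1, Sulf2 and Chpf are at the top, and Has2 and Has1 lie far below the rest.

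The libraries did not contribute evenly. KO replicate 1 was the lowest of the 6 libraries for 20 of the 39 tested genes (51.3%), and for 22.6% of all tested rows. WT replicate 3 was the highest for 16 (41%), and for 20% of all tested rows. Relative to the WT mean, the median of the 39 genes on the log2 CPM scale was −0.18, −0.10 and −0.05 in KO replicates 1, 2 and 3, against −0.01, −0.03 and 0.03 in WT. KO replicate 1, lowest in this median, also had the highest mitochondrial share and the lowest Hox mean. Its summed smooth muscle (40232 CPM) and Schwann markers (250 CPM) were the lowest of the 6 libraries. Its summed adventitial fibroblast (1415 CPM) and heart muscle markers (159 CPM) were the highest. For endothelial, macrophage, adipocyte and erythroid markers it lay at neither end. The part of mitochondrial share, of aortic position and of cell make-up in these differences was not tested. Csgalnact2 did not follow the order of the KO medians, since its 3 KO values were level.

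**Figure D4:**
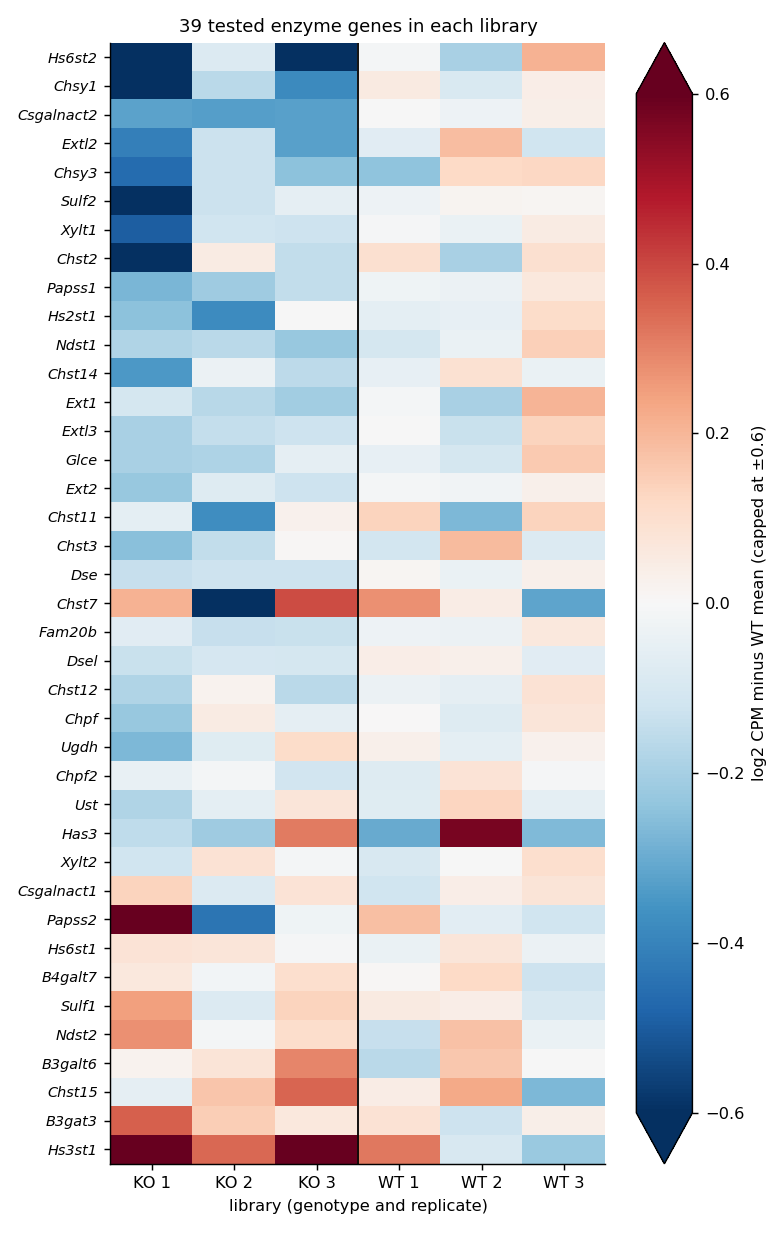
Colour gives each tested gene's log2 CPM minus its WT mean in each library, blue below and red above, with KO columns left of WT and genes sorted by their KO mean. Most cells of KO replicate 1 are blue, and Csgalnact2 is level over the KO libraries, at −0.32, −0.33 and −0.33.

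The wider pathway was read from 5 further lists with 108 genes, of which 76 were tested, and edgeR called 0 of them in either direction, while DESeq2 called 2 lower (Ids and Gpc6, with 1.22% of all rows it gave an adjusted p) and 0 higher (0.627% of rows). Unadjusted p under 0.05 was reached by 16 in the lower direction and 2 in the higher direction, where 7.76% and 6.8% of all tested rows reached it. Precursor supply and Golgi transport had 10 of 17 tested genes below 0 and 7 above, a median log2 fold change of −0.12, and 7 lower (7.76% over all tested rows) and 1 higher (6.8%) at an unadjusted p under 0.05. Impad1, the Golgi phosphatase that clears the by-product of sulfation, had 119.3, 132.6 and 125.5 CPM in KO libraries, against 149.3, 159.5 and 138.6 CPM in WT libraries (log2 fold change −0.25 ± 0.075, edgeR adjusted p = 0.277). Its groups did not overlap. Slc35a3, a UDP-N-acetylglucosamine transporter of the Golgi, had 18.3, 21.5 and 21.3 CPM in KO libraries, against 26.03, 26.5 and 22.9 CPM in WT libraries (log2 fold change −0.30 ± 0.096). Gnpnat1, of the hexosamine pathway, had a log2 fold change of −0.25 ± 0.078, and is uncertain because 81.9% of its exon bases lie opposite exons of Styx. Ugp2, which makes UDP-glucose and led this list per length, was at 117.1 ± 2.8 CPM in KO and 127.1 ± 6.3 CPM in WT (log2 fold change −0.12 ± 0.062). The 1 gene of the list higher at an unadjusted p under 0.05 was Slc35d1. It had 16.7, 19.1 and 18.1 CPM in KO libraries, against 16.5, 14.3 and 15.1 CPM in WT libraries, without overlap. Its log2 fold change was 0.23 ± 0.094 (unadjusted p = 0.0385, adjusted p = 0.322 with edgeR).

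Core proteins, the carriers of the chains, had 19 of 25 tested genes below 0 and 6 above, a median of −0.077, and 5 lower (7.76% over all tested rows) and 1 higher (6.8%) at an unadjusted p under 0.05. Gpc6, a glypican that anchors heparan sulfate to the membrane, had 93.4, 102.1 and 108.7 CPM in KO libraries, against 128.6, 130.4 and 152.2 CPM in WT libraries. The groups were well apart, with a log2 fold change of −0.43 ± 0.090, an adjusted p of 0.239 with edgeR and of 0.0107 with DESeq2. Sdc2 and Sdc4, transmembrane heparan sulfate carriers, had log2 fold changes of −0.22 ± 0.061 and −0.23 ± 0.076 (edgeR adjusted p = 0.264 and 0.279). Sdc2 had 157.0, 169.0 and 158.2 CPM in KO libraries, against 183.9, 188.8 and 191.3 CPM in WT libraries. Biglycan (Bgn), a dermatan sulfate carrier of the vessel wall and the most abundant core protein gene per length, was at 6735 ± 478.2 CPM in KO and 7078 ± 44.1 CPM in WT (log2 fold change −0.072 ± 0.11). Esm1 was the 1 core protein gene higher at an unadjusted p under 0.05. It had 2.42, 1.62 and 2.25 CPM in KO libraries, against 1.45, 1.27 and 1.41 CPM in WT libraries. Its log2 fold change was 0.61 ± 0.24 (unadjusted p = 0.0366, adjusted p = 0.319 with edgeR).

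Breakdown had 11 of 17 tested genes below 0 and 6 above, a median of −0.0044, and 3 lower (7.76% over all tested rows) and 0 higher (6.8%) at an unadjusted p under 0.05. The list held 22 genes, and those without a row were not analysed here. Ids, the lysosomal sulfatase that removes sulfate from iduronic acid of dermatan and heparan, had 144.0, 152.5 and 156.1 CPM in KO libraries, against 187.2, 188.0 and 188.7 CPM in WT libraries. Every KO library lay below every WT library, with a log2 fold change of −0.32 ± 0.059, an adjusted p of 0.239 with edgeR and of 0.00392 with DESeq2. Hyal1, a hyaluronidase, had a log2 fold change of −0.34 ± 0.11, and shares 51.9% of its exon bases with Hyal3 and Naa80 on the same strand. Hpse2, a relative of heparanase without its cleaving activity, had 0, 2 and 5 counts in KO, against 14, 26 and 14 counts in WT. The groups did not overlap, and its log2 fold change was −2.69 ± 0.68 (unadjusted p = 0.00472, adjusted p = 0.264 with edgeR). These counts are too few for a firm fold change. Hexa, a lysosomal hexosaminidase subunit and the most abundant of the list per length, had a log2 fold change of 0.14 ± 0.097.

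Hyaluronan receptors and organisers had 4 of 10 tested genes below 0 and 6 above, a median of 0.094, and 1 lower (7.76% over all tested rows) and 0 higher (6.8%) at an unadjusted p under 0.05. Cd44, the main hyaluronan receptor, had 33.1, 36.8 and 40.1 CPM in KO libraries, against 55.1, 42.0 and 45.8 CPM in WT libraries, without overlap (log2 fold change −0.38 ± 0.12, edgeR adjusted p = 0.277). Tnfaip6 and Itih2, which help to crosslink hyaluronan, had log2 fold changes of −0.38 ± 0.32 and −0.20 ± 0.15. Of 22 further synthesis and modification enzymes, most of them scarce, 7 were tested. All 7 were above 0, with a median of 0.12 and none at an unadjusted p under 0.05, among them, on the log2 fold change scale, Chst1 at 0.69 ± 0.47, Ndst3 at 0.49 ± 0.32 and B4galt1 at 0.12 ± 0.082.

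**Figure D5:**
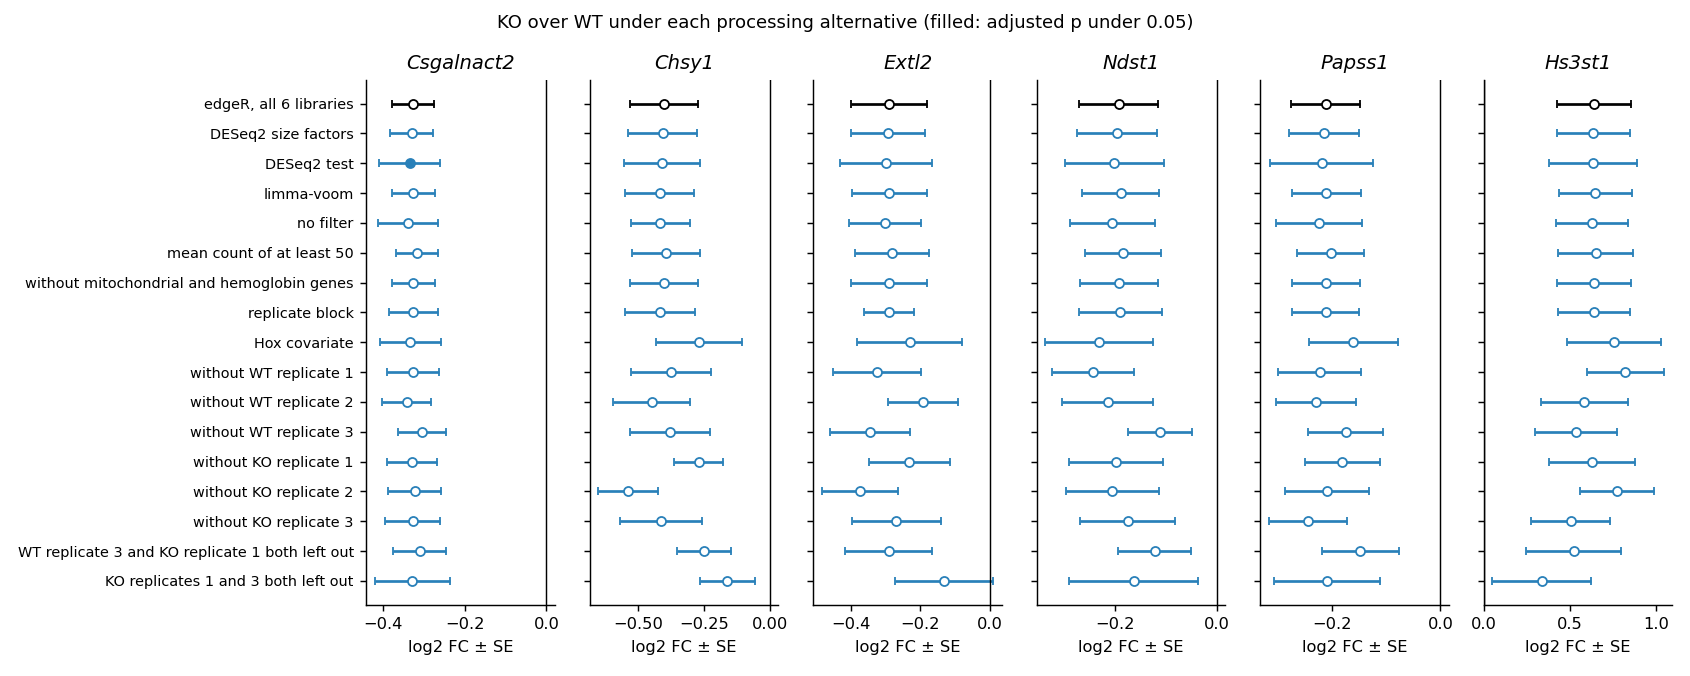
The log2 fold change of the 6 genes with an unadjusted p under 0.05 is plotted under edgeR and each of 16 alternatives, with bars of 1 standard error and filled points where the adjusted p was under 0.05. Csgalnact2 stays between −0.34 and −0.30, and its DESeq2 point is the only filled one.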

How the data were processed

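The authors deposited raw read counts, as whole numbers, for 53735 rows in 6 libraries. Reads had been handled with Trimmomatic 0.36, STAR 2.6.0c and featureCounts (Subread 1.6.1) on GRCm38, per the submitters' processing notes. The sources used here give neither the annotation release nor the strand setting. Columns were matched to libraries by the names in the labels.

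Counts were tested with edgeR 4.0.16 (R 4.3.3, quasi-likelihood test, trimmed-mean normalization, genotype as the only term) after filterByExpr with a minimum count of 10 and a minimum total of 15, which left 14145 rows. Two-sided p-values were adjusted over all of these by the Benjamini-Hochberg method, with a threshold of 0.05. KO was set over WT in each fold change, and standard errors came from the F statistic. CPM were normalized likewise, and log2 CPM used a prior count of 2. Exon lengths and positions came from GENCODE M21 on GRCm38, where all 41 genes matched by symbol, and promoters from RefSeq on GRCm38.p6, which listed 32 of them. DESeq2 1.42.0, limma-voom (limma 3.58.1), other filters, a replicate block, a Hox covariate and left-out libraries were the alternatives. The scripts were tested on simulated counts, where DESeq2 made more false calls than edgeR and limma-voom.

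The design text speaks of 3 KO and WT mouse pairs, which would allow a mouse per library, but no label ties a library to a single mouse or says which libraries form a pair. A p-value therefore measures the spread among these libraries, and whether that is between mice or technical is not stated. Within each genotype no replicate was entered more than once: chi-square per gene between libraries of a group was at least 13.96. KO libraries were not set against WT libraries in this check. Depth was 20048216 to 25521123 counts per library.

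The members, the pathway lists and the marker lists were chosen with earlier results of these data known. Values in every library are given for genes with an unadjusted p under 0.05, for Csgalnact1 and Csgalnact2, and for the gene of highest length-scaled level in each role. Each pathway list adds its 3 genes of smallest p and its most abundant gene per length. Further genes were named for groups that did not overlap or for the lowest fold change, after their values were seen.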

Additional observations from a re-analysis of the deposited data

How the results depend on the processing

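Over all tested rows edgeR called 1 and DESeq2 192. EdgeR called 9 with no filter, 0 with the replicate block, 0 with the Hox covariate, 0 when WT replicate 3 was left out together with KO replicate 1, and 0 to 3 with a single library left out (0 without WT replicate 1, 3 without KO replicate 2). Of the glycosaminoglycan genes DESeq2 called 1 and of the pathway lists 2, and no other alternative called any. At an unadjusted p under 0.05, 5 of the 39 genes were lower. There were 8 with no filter, 1 with the Hox covariate and 1 without both WT replicate 3 and KO replicate 1. With a single library left out there were 3 to 7 (3 without KO replicate 1). The 1 gene higher at that level became 0 without both WT replicate 3 and KO replicate 1. With a single library left out the count was 0 to 1 (0 without WT replicate 2 or without WT replicate 3). Genes below 0 numbered 23 to 30 over the alternatives. Same-numbered KO and WT libraries deviated together with correlations of 0.107, 0.134 and −0.056, and differently numbered ones with −0.283 to 0.179. With so few libraries per group, such correlations cannot decide whether the numbers mark pairs. The main fit had no pairing, as the labels do not say what a replicate number shares. With the replicate block 5 genes were at an unadjusted p under 0.05 in the lower direction, and Csgalnact2 had −0.33 (adjusted p = 0.301).

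Of the 39 tested enzyme genes, 24 kept the sign of their fold change in all 16 alternatives and 15 did not, and none of those 15 was further from 0 than 0.25 on the log2 scale with all libraries. Of the 38 genes described in most detail, pathway genes included, 28 kept it and 10 did not. Leaving out KO replicates 1 and 3 left KO replicate 2 as the only KO library, so only fold changes are given for it. The sign then turned for Csgalnact1 (−0.082), Chpf (0.051), Chst12 (0.024), Chst2 (0.046), B4galt1 (−0.027), Bgn (0.038) and Itih2 (0.12). Chpf turned also without WT replicate 3 and KO replicate 1 (0.035). With the Hox covariate it turned for Sulf2 (0.0064), Has3 (0.23) and Tnfaip6 (0.13). With a single library left out, Csgalnact1 ran from −0.010 to 0.11 and Has3 from −0.25 to 0.30. The cause was not tested. Low counts kept Has1 and Has2 out of the test. The Hox covariate and both settings that leave out 2 libraries were chosen with earlier results of these data known.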

Other observations

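Chst15 (chr7:132235780-132317228, minus strand, GRCm38) lies 1.40 Mb from Dhx32 (chr7:133720942-133782726, minus strand), and RP23-57D10.3, the row with 0 counts in KO, stands 2 rows after Dhx32 in the table. Chst15 had 146, 184 and 231 counts in KO libraries, against 194, 231 and 156 counts in WT libraries, and its CPM overlapped between the groups. Dhx32 had 671, 855 and 866 counts in KO libraries, against 1347, 1534 and 1411 counts in WT libraries.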
